A study of Mus musculus with 7 samples.

Results

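The genes described here build, steer and fuse the vesicles of the secretory and endocytic pathways, and they were measured in 7 samples of mouse liver. Members were taken by symbol: Rab followed by a digit, Arf1 to Arf6, Vamp, Stx, Sec and Snap followed by a digit, and the COPI coat genes (Cop followed by a, b, e, g or z). A gene was kept if a probe set of the array named it alone, and it was represented by its probe set with the highest mean. This gave 92 of 8251 named genes: 39 Rab, 6 Arf, 7 COPI, 19 Sec, 10 syntaxin, 7 Vamp and 4 Snap genes. A few share a prefix without a core traffic function, such as Sec1, the lipid carriers Sec14l1 and Sec14l2, and the opposite-strand transcripts Rab10os and Rab26os. Families go by prefix, so the Rab list also holds genes such as Rab3ip and Rab5if that encode no Rab GTPase.

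The animals were female mice with free access to food that were killed when 24 to 26 months old, and liver total RNA of each sample went to 1 array. Titles, source names and the series title make them phenotypically normal (genotype +/+ or +/df), while the description field names the Ames dwarf genotype (df/df), so the labels disagree and the titles were followed. All 7 samples formed 1 group, so the data give levels and the spread between animals, with no comparison between groups. The replicates carry the numbers of their titles, 1 to 4 and 6 to 8. Nothing in the labels says outright that each array stands for its own animal, so p-values measure the spread between these samples, which may be technical in part. The word animal below stands for the sample of 1 array.

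Secretory proteins enter the endoplasmic reticulum through the Sec61 channel. They leave it in COPII vesicles, coated by Sec23, Sec24, Sec13 and Sec31, and escaped proteins return from the Golgi in COPI vesicles, whose coat is recruited by the GTPase Arf1. Rab GTPases mark each compartment and bring tethers and motors to it, and SNARE proteins (syntaxins, Vamp and Snap proteins) fuse the membranes. Hepatocytes depend on this route to secrete plasma proteins and lipoproteins and on polarised recycling to serve the bile canaliculus.

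The arrays read liver: all 8 hepatocyte markers were tested, with summed signals of 168061 to 210899. Replicates 1 and 2 stood apart in the summed signal of skeletal muscle genes, with 11292.5 and 6301 over 10 markers against 2254 to 2396 on the other 5 arrays. Much of this came from Acta1, with 5991 and 2034 against 10.5 to 100 elsewhere. Atp2a1, Myl1, Tnnt3, Tnni2 and Tnnc2 were also highest on replicates 1 and 2. Not every marker rose: Ckm and Myh4 were lowest on replicate 1, at 144 and 103. By their bacterial spike-in controls the arrays formed sets: replicates 1 to 4 had a mean log2 signal of 10.64 to 10.97 over 9 control probe sets and replicates 6 to 8 one of 10.20 to 10.24. Log2 SDs that moved by over 1.5 times with either are given with the members concerned.

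Among the promoters of these genes, 5 of the 82 found in RefSeq (GRCm38.p6, 250 bases before to 50 after the start) held the letters TGACGTGG on either strand, the core that the unfolded protein response factors XBP1 and ATF6 are known to bind. That is 6.10% of the members' promoters, against 0.959% of 6572 genes on the array and 0.607% of all 27025 genes with a promoter. The 5 genes were Arf1, Copb1, Copb2, Sec23a and Stx5a, all of which act between the endoplasmic reticulum and the Golgi. Other members that act there, such as Copa, Cope, Sec13 and Sec31a, had no match. The 5 promoters with a match lie at chr11:59228218-59228517 (minus strand), chr7:114254631-114254930 (minus), chr9:98563481-98563780 (plus), chr12:59011968-59012267 (minus) and chr19:8741174-8741473 (plus). Their sequences are shown because these letters occur in them and in no other member's promoter; capitals mark the letters, as TGACGTGG or, on the opposite strand, CCACGTCA.
Arf1: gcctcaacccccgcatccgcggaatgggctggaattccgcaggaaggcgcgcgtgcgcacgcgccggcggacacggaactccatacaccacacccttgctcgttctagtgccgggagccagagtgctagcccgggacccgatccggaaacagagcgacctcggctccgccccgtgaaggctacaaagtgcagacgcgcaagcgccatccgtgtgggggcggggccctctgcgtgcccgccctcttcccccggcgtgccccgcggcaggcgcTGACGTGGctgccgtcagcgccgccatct
Copb1: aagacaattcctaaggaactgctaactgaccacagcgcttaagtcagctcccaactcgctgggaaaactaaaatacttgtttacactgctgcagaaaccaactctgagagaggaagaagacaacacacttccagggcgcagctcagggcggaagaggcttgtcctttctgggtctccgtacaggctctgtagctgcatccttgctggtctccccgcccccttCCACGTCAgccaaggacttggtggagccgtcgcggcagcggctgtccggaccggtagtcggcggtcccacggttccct
Copb2: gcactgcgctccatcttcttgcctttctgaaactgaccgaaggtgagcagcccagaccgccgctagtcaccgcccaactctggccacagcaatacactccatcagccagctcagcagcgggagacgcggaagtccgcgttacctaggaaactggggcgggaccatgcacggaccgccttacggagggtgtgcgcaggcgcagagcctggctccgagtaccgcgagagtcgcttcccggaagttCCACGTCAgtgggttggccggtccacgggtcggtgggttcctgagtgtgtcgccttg
Sec23a: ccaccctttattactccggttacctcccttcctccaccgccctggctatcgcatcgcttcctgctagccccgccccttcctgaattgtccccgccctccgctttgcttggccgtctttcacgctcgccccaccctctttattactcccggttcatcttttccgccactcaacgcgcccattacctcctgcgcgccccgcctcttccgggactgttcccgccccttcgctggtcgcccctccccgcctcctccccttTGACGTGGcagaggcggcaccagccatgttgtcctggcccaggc
Stx5a: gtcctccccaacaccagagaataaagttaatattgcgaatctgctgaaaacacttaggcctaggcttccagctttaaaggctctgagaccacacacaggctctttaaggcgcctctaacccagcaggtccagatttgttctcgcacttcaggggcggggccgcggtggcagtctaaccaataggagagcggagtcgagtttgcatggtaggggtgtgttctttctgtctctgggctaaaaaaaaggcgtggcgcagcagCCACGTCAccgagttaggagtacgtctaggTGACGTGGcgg
The match began 28 bases before the start in Copb1 and 7 before it in Copb2, both on the opposite strand, and at base 22 of the transcript in Arf1 and base 7 in Sec23a. Stx5a had 2 matches, at bases 10 and 40. Each match holds the letters ACGTG, which were also searched alone. A match is a run of letters, not a measured binding site, and the motif was 1 of 8 searched, in windows of equal length.

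Members' promoters were rich in GC boxes and held few TATA boxes. The GC box GGGCGG was in 62 of 82 promoters (75.6%, against 59.3% of array genes) and the TATA box TATAAA in 4 (4.88%, against 10.4%): Rab26os, Rab3b, Rab7 and Stx3. Median GC content was 63.3% for members and 60.0% for array genes. The E box CACGTG was in 12 promoters (14.6%, against 9.95%), among them Rab5a, Rab20, Rab21, Rab24 and Sec62, and ACGTG, which the E box contains, in 35 (42.7%, against 24.5%). The cAMP response element TGACGTCA was in 3, those of Cope, Rab25 and Rab5a (3.66%, against 2.88%), CCAAT in 34 (41.5%, against 38.3%), and the spaced endoplasmic reticulum stress element in 0 (against 0.167%). These shares are descriptions of 1 promoter per gene, with no test.

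Most of the traffic machinery was read well above the floor in this liver. A mean signal of at least 200.1, which is 0.4 of the arrays' trimmed mean, was required for testing, and 66 of 92 members reached it (71.7%, against 54.3% of all named genes). All 7 COPI genes and 5 of 6 Arf genes were tested, as were 28 of 39 Rab, 14 of 19 Sec, 7 of 10 syntaxin, 4 of 7 Vamp and 1 of 4 Snap genes. On all 7 arrays 6 members lay below the floor of 50.04 (6.52%, against 12.5% of all genes): Rab3b, Rab26os, Rab35, Sec24b, Snap25 and Snap91. The other 20 lay between. Signals of different probe sets do not rank transcript amounts, so levels below are each gene's own.

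**Figure D1:**
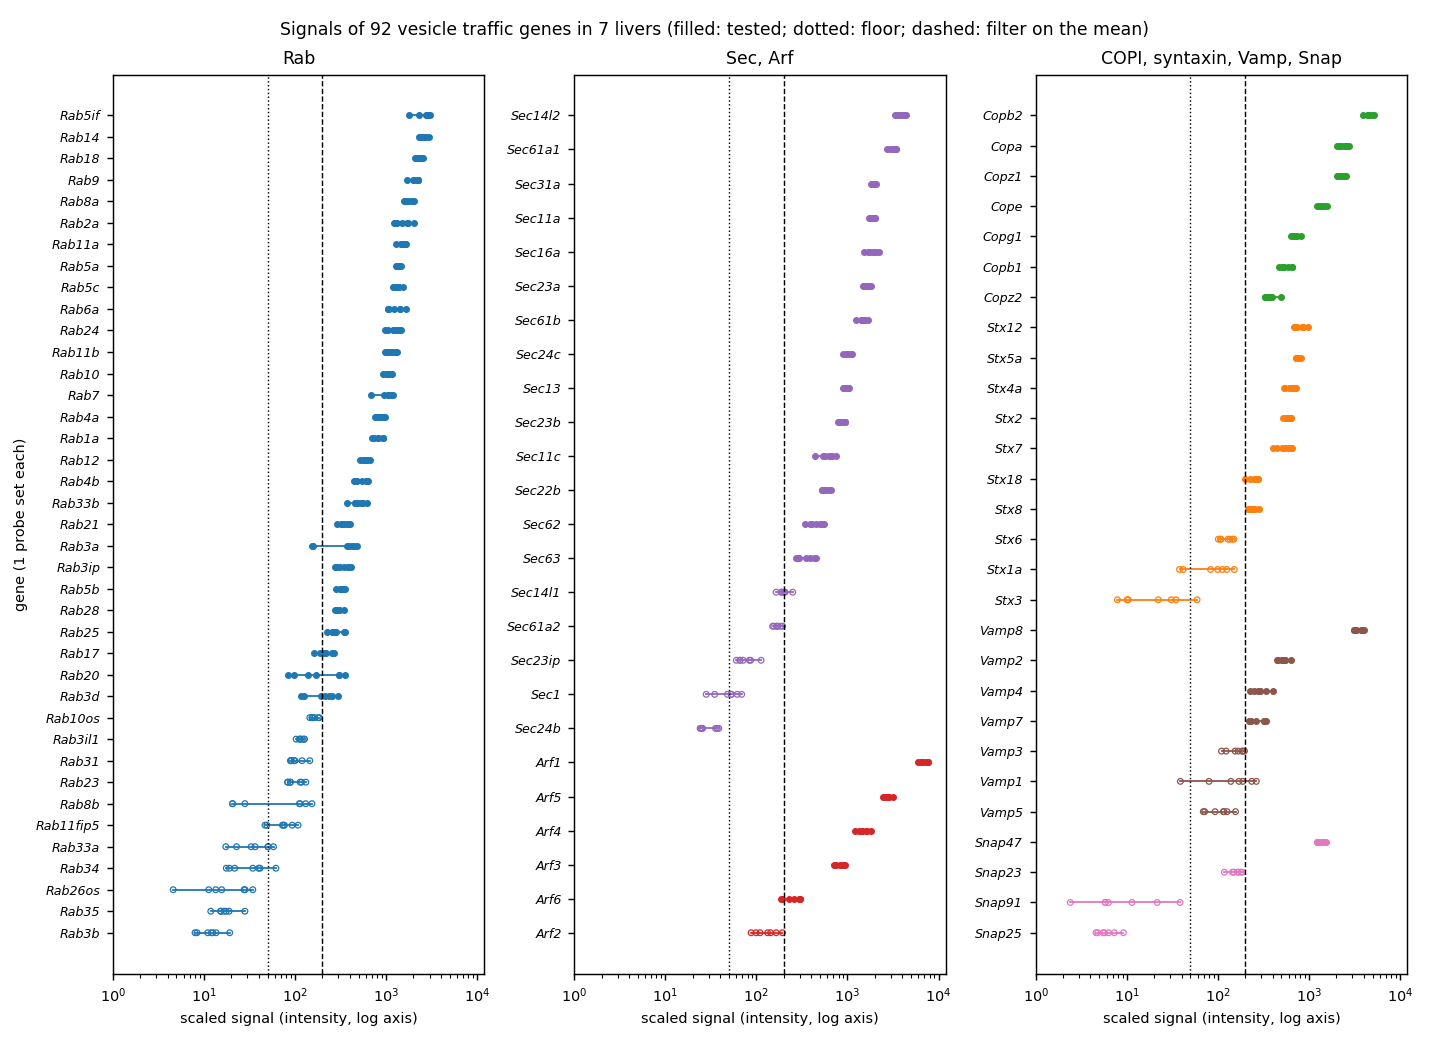
Scaled signal (intensity, log axis) of each of the 92 genes on the 7 arrays, 1 point per animal and 1 line per gene from its lowest to its highest value, by family. Filled points are the 66 tested genes; the dotted line is the floor of 50.04 and the dashed line the filter of 200.1 on the mean. Most lines above the filter are short, and those of Rab3a and Rab20 are long; among untested genes Rab8b, Vamp1, Stx1a, Stx3, Snap91 and Rab26os have long lines, several of them below the floor.

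Of the members that form or serve the channel into the endoplasmic reticulum, all but Sec61a2 were tested. Sec61a1, the channel's pore subunit, had a signal of 3142 ± 250.4 (SD, n = 7), with a lowest value of 2728, a median of 3183 and a highest of 3436. Its small partner Sec61b had 1471 ± 136, from 1244 on replicate 3 to 1687 on replicate 1. Sec62 and Sec63, which assist import, had 455 ± 77.5 and 352 ± 71.4. The signal peptidase subunit Sec11a had 1905 ± 93.9 and its relative Sec11c 611 ± 103. The alternative pore gene Sec61a2 stayed under the filter, at 151 to 194.

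Genes of the COPII coat were read above the filter, apart from Sec24b. Sec31a, a subunit of the outer cage, had 1942 ± 79.2, with a lowest value of 1826, a median of 1937 and a highest of 2081, and its partner Sec13 had 973 ± 54.6. The inner coat genes Sec23a, Sec23b and Sec24c had 1614 ± 122, 883 ± 60.9 and 1008 ± 73.97. Sec16a, which marks exit sites, had 1871 ± 237, while Sec24b lay below the floor throughout, at 24.1 to 38.6. Sec22b, a SNARE of these vesicles, had 575 ± 49.4. On the probe sets used, the highest value of each of these tested genes was at most 1.46 times the lowest, that of Sec16a. Other probe sets were wider, from 238 to 429 for Sec23a and from 169 to 271 for Sec22b. That of Sec23b ran from 44.0 to 319, and the log2 SD of Sec23b, 0.10, was 0.54 with its probe sets averaged. The log2 SD of Sec16a, 0.19, was 0.12 without the muscle-high replicates 1 and 2.

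All 7 COPI genes among the members and all Arf genes but Arf2 were tested. The coat's delta subunit gene, Arcn1, falls outside the rule and had 891 ± 74.9. Copa, the alpha subunit, ranged from 2051 on replicate 4 to 2727 on replicate 7, with a median of 2402. Its fellow subunits Copb1, Copb2, Cope, Copg1 and Copz1 had 560 ± 70.7, 4570.5 ± 413, 1388 ± 109, 711 ± 58.6 and 2260 ± 191. The isoform gene Copz2 had 374 ± 57.7 and was highest on replicate 4, at 492.5; its log2 SD was 0.21, and 0.11 without that replicate. On the probe sets used, Copa, Cope, Copg1 and Copz1 were all highest on replicate 7. The dimmer Copg1 probe set was highest on replicate 6, at 499, and had 472 on replicate 7. Replicate 7 was the highest array for 14 of the 66 tested members. Without that array the log2 SD of Copg1, 0.12, was 0.07. Arf1, which recruits the coat, had 6869 ± 662, and Arf3, Arf4 and Arf5 had 819 ± 91.7, 1492 ± 197 and 2742 ± 220. Arf6, which acts at the plasma membrane, had 250.5 ± 50.1, and Arf2 stayed under the filter at 133 ± 37.7.

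Rab genes of all main compartments were read above the filter. On the way to and through the Golgi, Rab1a had 834 ± 92.3, Rab2a 1551 ± 289 and Rab6a 1270 ± 239. Of the early endosome regulators, Rab5a had a lowest value of 1272, a median of 1344 and a highest of 1472, and Rab5b and Rab5c had 325 ± 24.4 and 1323 ± 118. Recycling was represented by Rab4a at 853 ± 74.1, Rab4b at 543 ± 77.7, Rab11a at 1529 ± 131 and Rab11b at 1131 ± 118, and transport from late endosomes by Rab7 at 1028 ± 169.9, with 1 array apart (1 of 66 members, 1.52%, against 6.29% of all tested genes, had such a gap), and Rab9 at 2081 ± 206. Rab8a and Rab10, which act in exocytosis, had 1780.5 ± 169.5 and 1068 ± 84.1, Rab14, between Golgi and endosomes, 2564 ± 223, and Rab18, which sits on lipid droplets, 2271 ± 158. Rab17, an epithelial Rab of transcytosis, and Rab25, a relative of Rab11, had 223 ± 39.2 and 285 ± 48.6. Rab5if, whose product was named for binding Rab5, was lowest on replicate 4, at 1788, with 2283 to 3002 elsewhere; its log2 SD was 0.27, and 0.14 without replicate 4. Leaving out 1 array also moved the log2 SD of Rab5c from 0.12 to 0.08 (replicate 4), of Rab11a from 0.13 to 0.08 (replicate 6) and of Rab9 from 0.15 to 0.08 (replicate 3). Rab24, a Rab of autophagy, had 1229 ± 178, and Rab12, Rab21, Rab28, Rab33b and Rab3ip, which encodes an exchange factor for Rab8, had means of 301 to 588. Members of the Rab list under the filter but above the floor on some array were Rab8b, Rab10os, Rab11fip5, Rab23, Rab31, Rab33a, Rab34 and Rab3il1.

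Fusion proteins of the plasma membrane and the endosomes were read in part. Vamp8, an endosomal and secretory SNARE, had 3470 ± 367 on a probe set whose suffix (_f_at) marks that it can read related sequences. The probe sets used for Rab31 and Rab33b have the same suffix. Suffixes other than plain _at were also carried by those used for Arf4 and Sec14l2 (_s_at), Copb2, Sec24b and Sec62 (_r_at) and Vamp1 (_i_at). What else these probe sets can read was not checked. Stx4a and Stx2, plasma membrane syntaxins, had 626 ± 70.2 and 592 ± 44.5, but their usual partner Snap23 stayed under the filter at 158 ± 22.9. Stx5a, the Golgi syntaxin, had a lowest value of 715, a median of 742 and a highest of 811. The endosomal syntaxins Stx7, Stx8 and Stx12 had 538 ± 92.2, 244 ± 21.6 and 807 ± 105.5, and Vamp2, Vamp4 and Vamp7 had 519.5 ± 60.4, 297 ± 58.7 and 288 ± 49.1. Stx18, a syntaxin of the endoplasmic reticulum, had 249.8 ± 28.4, with a log2 SD of 0.17 that was 0.11 without replicate 4, while Stx3, Stx6, Vamp3 and the other Sec members Sec1, Sec14l1 and Sec23ip stayed under the filter. Snap47, an atypical relative of the Snap genes, had 1383 ± 130; its log2 SD was 0.14, and 0.09 without replicates 1 and 2.

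Genes known from nerve and endocrine secretion divided. Snap25, the neuronal Snap protein, never exceeded 9.20, and Rab3b never exceeded 19.2. Stx1a, the neuronal syntaxin, ranged from 38.0 to 152 and Rab3il1 from 103 to 127. Rab3d, known from exocrine secretion, reached a mean of 204 ± 65.3, just above the filter, and Rab3a, known from synaptic vesicles, 346 ± 135. Of 8 neuron markers 7 were on the array and 3, Syp, Nefl and Nefm, lay below the floor on all arrays. The summed signal of the list was 969.7 to 1195, most of it from Tubb3 and Stmn2. In bulk tissue, fewer cells of a type and less RNA per cell cannot be told apart. Rab27 genes were not analysed here.

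The traffic genes gave no call in the test of spread between animals. It set each gene's variance, with limma, against the variance expected at its mean signal, and called 0 of 66 members after Benjamini-Hochberg adjustment and 0% of all 4481 genes tested. With 7 arrays the adjusted test can rarely pass, even for genes of much larger spread, so the absence of calls does not show that the genes were stable. At an unadjusted p under 0.05 it gave 2 members (3.03%), Rab3a and Rab20, against 6.72% of all genes. The median log2 SD was 0.15 for members and 0.18 for all tested genes, and 41 members (62.1%) had a smaller SD than expected at their level, against 50.9% of all genes. At the other end of the test, 5 members had an unadjusted p over 0.95 (7.58%, against 4.8%): Rab5a, Rab28, Sec11a, Sec31a and Stx5a. That count was chosen after the values were seen. The log2 SD of Sec31a, 0.06, was 0.09 with median centring, that of Stx5a, 0.06, was 0.04 without replicate 4, and that of Rab28, 0.10, was 0.06 without replicate 6.

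**Figure D2:**
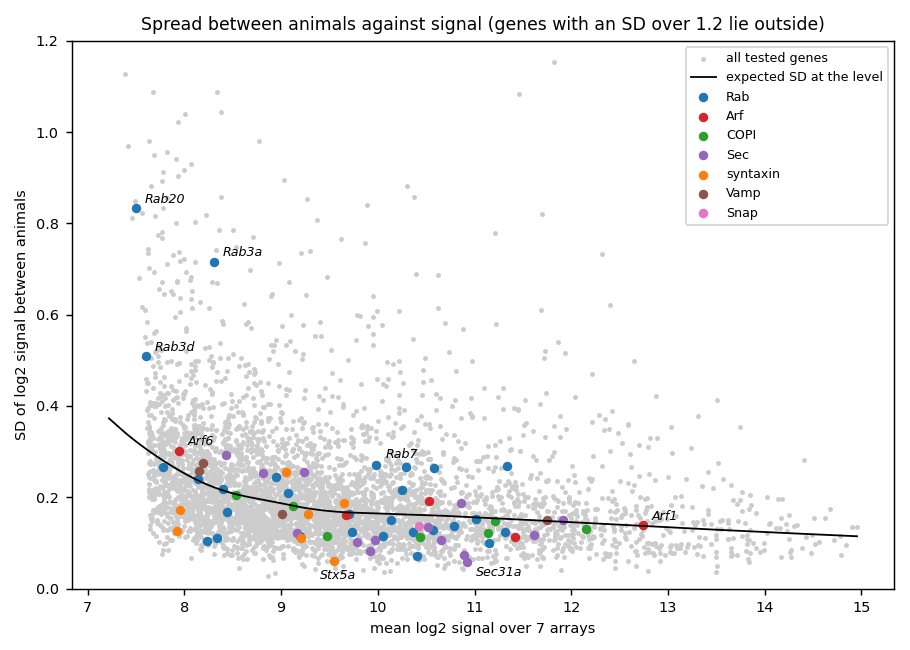
SD of log2 signals between the 7 animals against mean log2 signal for all 4481 tested genes (grey) and the 66 tested members (colours by family); the line is the SD expected at each level. Rab20 and Rab3a lie far above the line, at 0.83 and 0.72, and Sec31a and Stx5a far below it, at 0.06 and 0.06.

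Rab3a and Rab20 had the widest spread among tested members. Both had values near their lowest on replicate 3, and replicate 2 held the highest Rab20 value and a low Rab3a value. The Rab3a signal lay between 372.5 and 475 on 5 arrays, but on replicates 2 and 3 it was only 156 and 153. The highest value was 3.10 times the lowest, with no value between 156 and 372.5. Its log2 SD was 0.72 against an expected 0.22 (limma-based test, adjusted p = 0.397), and 0.35 with all its probe sets averaged, since another probe set of Rab3a had 5.90 to 57.7. On replicates 2 and 3 the neuron list summed to 1087 and 1043, within the range of the others, and its part in the result was not tested. Rab20, a Rab found in epithelia and macrophages, reached 351, 302 and 302 on replicates 2, 6 and 7, whereas the other 4 arrays gave 84.4 to 170. It had a log2 SD of 0.83 against 0.32 (adjusted p = 0.533). The summed macrophage signal over 9 markers was 6672, 7150 and 8561 on the 3 arrays where Rab20 was high and 6277 to 7613 on the others; its part was not tested. Rab3a, Rab20 and Rab3d all left the test when the filter was raised to 0.8 of the trimmed mean, and then 0 of 50 members had an unadjusted p under 0.05 in the limma-based test, against 6.58% of all genes at that filter. Without replicate 2, 6 or 7 Rab20 fell under the filter, and the count was 1 (1.52% to 1.56%, against 6.33% to 6.96% of all genes).

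**Figure D3:**
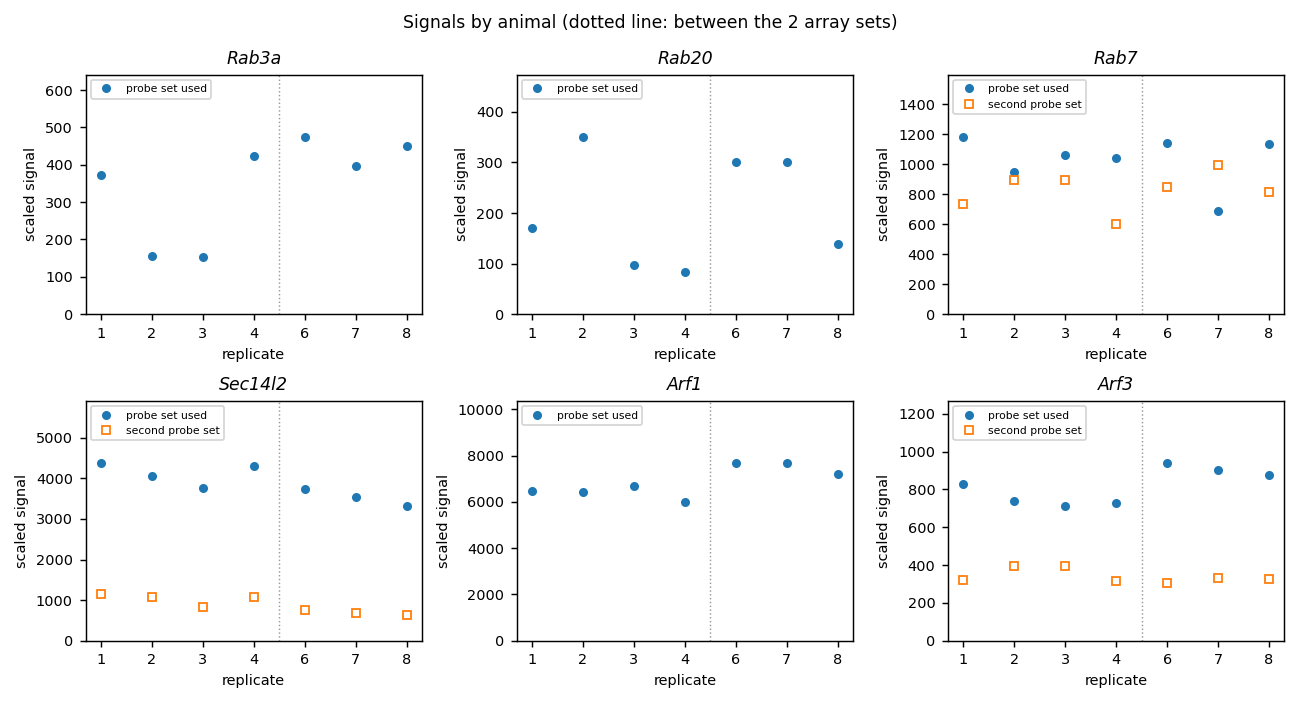
Scaled signal by animal for Rab3a, Rab20, Rab7, Sec14l2, Arf1 and Arf3 (filled points: the probe set used; open squares: another probe set above the filter; dotted line: between the array sets). Rab3a is low on replicates 2 and 3, Rab7 is low on replicate 7 on 1 probe set only, and both Sec14l2 probe sets fall and rise on the same arrays.

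Some dim members outside the test also differed widely. Rab8b, a relative of Rab8a, lay below the floor on replicates 1, 3 and 4, at 20.6 to 28.2, but had 112 to 153 on the other 4. Vamp1, a Vamp known from nerve and muscle, ranged from 38.8 on replicate 8 to 264.5 on replicate 6. Vamp5, known from muscle and endothelium, was highest on replicate 1, at 156, an array with high muscle markers, but had 93.3 on replicate 2, the other such array, within the 69.3 to 126 of the rest. The part of muscle RNA in it was not tested.

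Agreement between probe sets limited what the spread of single genes could show. Of the tested members, 14 genes had more than 1 probe set above the filter, which gave 15 comparisons with the brighter probe set. Only for Sec14l2, a tocopherol-binding protein of the liver, did the probe sets vary together across the 7 animals after adjustment over the 15 (Pearson r = 0.974, exact permutation p = 0.0006, adjusted p = 0.009; Spearman rho = 0.964, exact permutation p = 0.003, adjusted p = 0.042). It kept an r of 0.961 when replicates 1 and 4 were left out, the 2 that lay farthest from the median, and 0.935 with array set means removed. Whether both Sec14l2 probe sets read separate stretches of the transcript was not checked. Over all 15 the median r was -0.03 and 6 were positive (40.0%), against a median of 0.22 and 65.9% positive over 666 such comparisons in 588 genes of the whole array. Sec61a1 was highest on replicate 6 on 1 probe set and on replicate 7 on the other (r = -0.490, exact permutation p = 0.275, adjusted p = 0.826; rho = -0.536). Rab7 was lowest on replicate 7, at 685, by the probe set used and highest there, at 996, by the other (r = -0.533, exact permutation p = 0.217, adjusted p = 0.815; rho = -0.536). The choice to compare probe sets was made after the values were seen.

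No tested pair of partners in the same coat, step or family passed the test of varying together. Of 22 pairs fixed for their shared complex, step or family, 17 could be tested and 0 passed exact permutation tests over 5040 pairings after adjustment over the 17, with 2 at an unadjusted p under 0.05 by Pearson's r. These were Arf1 with Arf3 and Arf1 with Copa. For Arf1 and Arf3, close relatives that recruit coats at the Golgi, r was 0.851 (exact permutation p = 0.028, adjusted p = 0.250) and rho 0.786 (exact permutation p = 0.048, adjusted p = 0.408), but r fell to 0.227 with array set means removed, and was 0.639 without replicates 6 and 7, the farthest from the median. The Arf3 probe set used had an r of -0.676 with a dimmer Arf3 probe set, so the value holds for the probe set used only. For Copa and Arf1, r was 0.822 (exact permutation p = 0.029, adjusted p = 0.250), rho 0.857 (exact permutation p = 0.024, adjusted p = 0.405), 0.626 with set means removed and 0.557 without replicates 4 and 7. For the translocon subunits Sec61a1 and Sec61b, r was -0.671 (exact permutation p = 0.099, adjusted p = 0.560) and rho -0.607, with an r of -0.257 without replicates 1 and 8. This pair used the brighter Sec61a1 probe set, which had an r of -0.490 with the dimmer one. The pair's r stayed negative with all probe sets averaged, and the dimmer probe set was not tested alone. In all other tested pairs r lay between -0.464, for Arf4 with Arf5, and 0.306, for Cope with Copz1. Over all 2145 pairs of tested members the mean r was 0.011, against 0.001 over all tested genes. By family it was -0.093 for syntaxin, -0.072 for Arf, 0.002 for Sec, 0.014 for Rab and 0.031 for Vamp genes. The highest family value was 0.188, for the 7 COPI genes over 21 pairs. Most of these 21 were not among the 17 and were not tested. They ran from -0.487, for Copa with Copz2, to 0.872, for Copg1 with Copz1, and both of these were untested. The Copg1 probe set used had an r of -0.219 with the dimmer one. The points of each correlation share the arrays, their scaling and the array set.

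**Figure D4:**
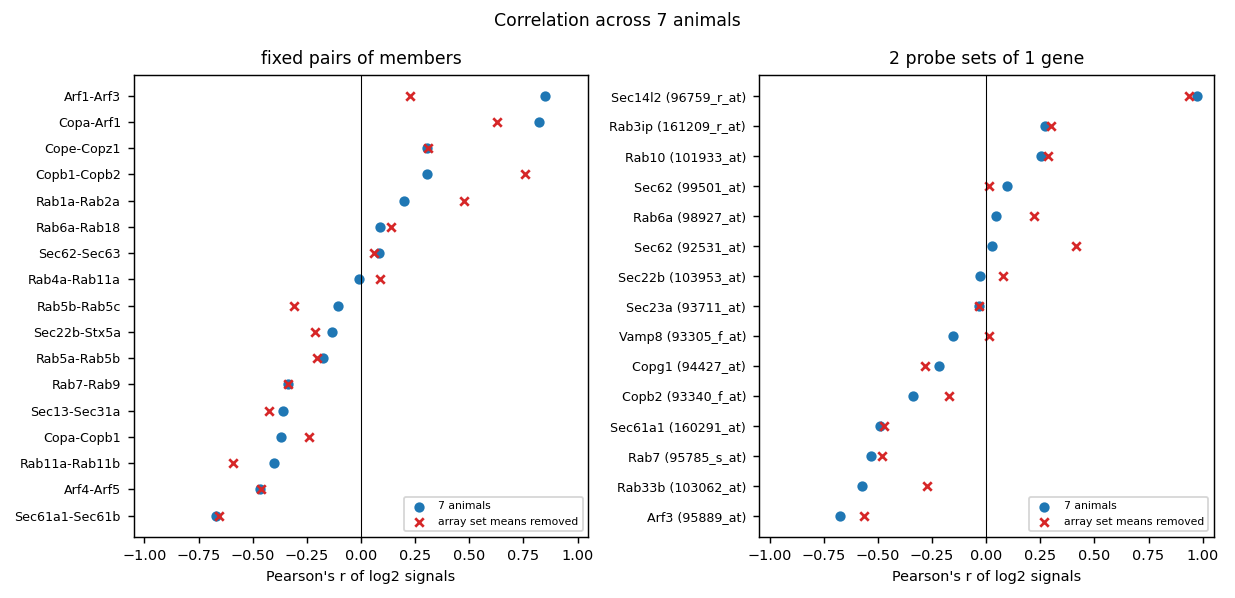
Pearson's r of log2 signals across the 7 animals for the 17 tested pairs of members (left) and for 15 comparisons of probe sets of 1 gene (right, named by gene and the dimmer probe set). Dots use all 7 arrays and crosses use values with array set means removed. Arf1 with Arf3 falls from 0.851 to 0.227 between dot and cross, and Sec14l2 stays at 0.974 and 0.935.

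Among the members whose values separated by array set, 3 were Arf genes. On replicates 6 to 8 Arf1 had 7197 to 7679, above the 5975 to 6693 of replicates 1 to 4, and Arf3 had 878 to 940 against 714.5 to 830. Arf6 went the other way, with 184 to 227 against 258 to 302. On the probe sets used, values did not overlap between the sets for 4 members that were higher on replicates 6 to 8 (6.06%, against 3.62% of all genes). These were Arf1, Arf3, Copb2 and Rab33b. The same held for 2 that were lower (3.03%, against 3.73%), Arf6 and Sec14l2. The limma fit with the set as a term called 0 of 66 members after adjustment (smallest adjusted p = 0.555, for Arf6), and 0 of all genes, and gave 7 at an unadjusted p under 0.05 (10.6%, against 6.90%). With the set as a term, log2 SDs were 0.06 for Arf1, 0.08 for Arf3 and 0.13 for Arf6, against 0.14, 0.16 and 0.30. That of Rab33b was 0.16, against 0.24, and that of Sec14l2 0.10, against 0.15. The sets come from the spike-in controls and are not groups of the study, and a set cannot be told apart from the animals it holds. A dimmer Arf3 probe set gave 303 to 332 on replicates 6 to 8, within the 315 to 396 of replicates 1 to 4 at 2 of these 3 arrays. The dimmer Rab33b and Copb2 probe sets above the filter did not separate by set either. For Rab33b, replicates 6, 7 and 8 had 181, 198 and 184, inside the range of the other set (lowest 171, highest 231). For Copb2 they had 455, 368 and 634, where the other set had a lowest value of 483 and a highest of 638. The dimmer Sec14l2 probe set did separate, with at most 766 against at least 823. The other Arf6 probe set, under the filter, did not: it had 99.8 to 108 on replicates 6 to 8, inside the 84.2 to 169 of replicates 1 to 4. Arf1 had 1 probe set.

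Other genes of membrane traffic, listed apart from the members, gave no call either. Of 101 such genes on the array 83 were tested, 0 passed the test of spread, and 3 had an unadjusted p under 0.05 (3.61%, against 6.72% of all genes). Their median log2 SD was 0.15. Surf4 and Mcfd2, which help cargo leave the endoplasmic reticulum, had 6096 ± 475 and 5180.5 ± 373, the cargo receptor Lman1 3691 ± 325, the sorting nexin Snx3 3935 ± 307, the signal recognition receptor Srpr 3842 ± 348 and the translocon gene Ssr3 3709 ± 233. The 3 with a low unadjusted p were Vps26a, a retromer subunit, Nsf, which takes SNARE complexes apart, and the clathrin adaptor Ap2b1. Vps26a reached 1233 on replicate 4, with 360 to 624.7 elsewhere. Nsf was lowest on replicate 1, at 69.4, with 177 to 393 elsewhere, and Ap2b1 on replicate 7, at 47.8, with 149 to 402 elsewhere. Their adjusted p values were 0.397, 0.443 and 0.397 in the limma-based test.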

How the data were processed

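Liver RNA of 7 mouse samples was measured on 1-colour Affymetrix mouse U74Av2 arrays, per the labels. The deposited table gives an intensity per probe set. The authors had scaled it: the mean after trimming 2% at each end was 500.36 to 500.39 on every array. The software is not given in the sources used here. Precision is limited by the 7 arrays. Of 12488 probe sets, 66 of them controls, 10833 had a single gene symbol, 396 several and 1259 none. Entrez identifiers matched all 92 members to RefSeq.

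Arrays were rescaled to a shared trimmed mean, a floor of 0.1 of it (50.04) was applied, and the values were put on the log2 scale. Spread was tested with an intercept-only fit in limma 3.58.1 (R 4.3.3): each gene's variance against a robust prior that follows the mean (5.61 prior degrees of freedom), an upper-tail F test, adjusted over 4481 genes at 0.05. Array sets were split at the widest gap of 9 spike-in probe sets and tested with lmFit and eBayes. Printed signals are scaled, with no floor applied, as mean ± SD. Tests were tried on simulated data, where the adjusted test of spread recovered very few of the genes that had been given more spread, so a count of 0 from it is weak evidence and no sign of stability. Correlations used exact two-sided permutation. Python 3.11.15, numpy 2.4.6, pandas 2.3.3, scipy 1.17.1 and matplotlib 3.10.9 did the rest.

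Members, lists and pairs were chosen with earlier results of these data known. Genes are named by family: the highest signals, the largest and smallest SD over that expected, members with an unadjusted p under 0.05, members below the floor, those of fixed pairs and the Rab3, Snap25 and Stx1 members; partner genes by the 6 highest signals and an unadjusted p under 0.05. Other members were named after their values were seen. Alternatives were other scalings, floors of 0.05 and 0.2, an offset, filters of 0.2 and 0.8 or none, all probe sets averaged, each array left out, other priors, the array set as a term and, added after seeing the data, leaving out replicates 1 and 2 together.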

Additional observations from a re-analysis of the deposited data

Results flagged for a closer look

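Rab7, the Rab of late endosomes and lysosomes, had 1 array far from the others: 685 on replicate 7 against 950 to 1184 on the other 6. Its log2 SD was 0.27, and 0.12 without replicate 7. The other Rab7 probe set was highest on that array. Of 66 tested members, Rab7 alone had such a gap (1.52%, against 6.29% of all tested genes), where chance alone marks about 1 gene in 20.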

How the results depend on the processing

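The limma-based test of spread called 0 members after adjustment under any alternative, with the smallest adjusted p between 0.344 and 0.942, which says little, since this test can rarely pass with 7 arrays. Of 1056 log2 SDs, of 66 members under 16 alternatives, 1046 were tested and 10 were not, because Rab20, Rab3a, Rab3d or Arf6 fell under the filter there. The count at an unadjusted p under 0.05 was 2 of 66, and became 0 of 50 with the filter at 0.8 (6.58% of all genes there), 4 of 92 without a filter (10.9%) and 1 of 64 without replicates 1 and 2 together (6.50%). It was 3 with the filter at 0.2 (6.14% of all genes), with all probe sets averaged (5.52%) and with a prior without the trend (5.47%). It ranged from 1 to 2 when each array was left out (1.52% to 3.08%, against 6.31% to 6.96% of all genes). It was 1 without replicate 2, 6 or 7, where Rab20 was not tested. The median log2 SD of 0.15 became 0.16 with median centring, 0.16 with the filter at 0.2, 0.14 with the filter at 0.8, 0.14 with all probe sets averaged and 0.14 with the array set as a term. The mean pairwise correlation of tested members across the animals, 0.011, became 0.0401 with median centring, 0.000322 with quantile normalization and -0.00426 with the array set as a term. Single log2 SDs moved by over 1.5 times in 29 of the 1056 cases, in 26 members. The number of tested members was 50 to 92 over the filters and 64 to 67 when an array was left out. Of the 17 pairs, 0 passed after adjustment under the 14 alternatives tested (smallest adjusted p 0.094, without replicate 1), and 7 kept the sign of r under all 15. No paired analysis was possible because all samples form 1 group. Values near the floor have no detection call, so dim members cannot be told from background.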
